A study of Mus musculus with 5 samples.

Results

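Tph1, Ivd, Irs2 and Wipi1 were followed across cell classes and physiological states in single-cell libraries of mouse pancreatic islets. They are 4 of the 6628 genes measured in every library. They were taken by gene symbol, with earlier results of these data known, as genes linked to the lactogens, the hormones prolactin and placental lactogen. The study set pregnant and postpartum islets beside islets of non-pregnant females. All mice were of the C57BL/6 strain, and viable cells of dissociated islets entered inDrop, a droplet method that counts polyadenylated RNA by molecular identifiers (UMIs). There were 2 postpartum libraries, 2 pregnant libraries and 1 non-pregnant library. The labels give no day of gestation, day after birth, age or number of mice per library. The p-values therefore rest only on the spread between these libraries, which may be technical. In the main tests between states in the beta class this spread was a trend over genes, not that of each gene.

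Lactogens act on beta cells, the insulin cells of the islet, through the prolactin receptor Prlr, the kinase JAK2 and the transcription factor STAT5. In rodent pregnancy this signal is known to enlarge the beta-cell mass and to switch on Tph1, tryptophan hydroxylase, the rate-limiting enzyme of serotonin synthesis outside the brain. Serotonin released by beta cells acts back on them. Ivd encodes isovaleryl-CoA dehydrogenase, a mitochondrial enzyme of leucine breakdown. Irs2, insulin receptor substrate 2, carries the signal of the insulin and IGF1 receptors to PI3 kinase and AKT and is needed to keep beta-cell mass. Wipi1 encodes a WD-repeat protein that binds phosphoinositides on forming autophagosomes, the vesicles that enclose cell content for breakdown.

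The libraries differed strongly in size. Postpartum 1, postpartum 2, pregnant 1, pregnant 2 and the non-pregnant library held 557, 1126, 1993, 164 and 847 cells, with a median of 236, 572.5, 539, 89 and 2553 UMIs per cell. Pregnant 2 stood apart from the others, with 16306 UMIs in all and 1193 features detected, against 148522 to 2561319 UMIs and 6070 to 27309 features elsewhere. Cells were classed by the largest of their insulin (Ins1 and Ins2 summed), glucagon, somatostatin and pancreatic polypeptide counts. The beta class held 402, 896, 1773, 121 and 680 cells in the same order, and the alpha class, led by glucagon, held 123, 179, 141, 23 and 94. The 7 measured beta markers other than the hormones (Mafa, Slc2a2 and Ucn3 among them) summed to 8076, 7007, 6239, 13078 and 4001 CPM in the beta class, against 2736, 1432, 828, 0 and 652 CPM in the alpha class. In pregnant 2, 4 of these 7 were at 0 in the beta class. Levels below are means over the cells of a class of counts per 1000000 non-hormone UMIs (CPM). The summed non-hormone UMIs of the beta class set the depth behind them, 39368, 194115, 526241, 6867 and 1088356 in the same order. A count of 0 allows 76.2, 15.5, 5.70, 437 and 2.76 CPM (3 counts), and these limits and all intervals cover counting error only.

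The upstream sequences of Ivd and Wipi1 are shown because each holds a match to TTCNNNGAA, the palindromic gamma-activated sequence to which STAT5 binds. The motif was searched in the 250 bases before each RefSeq transcription start (GRCm38.p6), and being its own reverse complement it reads the same on both strands. Of 32851 starts in the mouse table, 2306 held it (7.02%). The match lies 88 bases before the Ivd start and 158 bases before the Wipi1 start. Neither of the 2 annotated starts of Tph1 nor the start of Irs2 held a match in this window. The stretches printed are free of annotated exons, run from 5′ to 3′ on the gene's strand, and have the match in capitals. The Ivd stretch is chr2:118861744-118861953 on the plus strand and the Wipi1 stretch chr11:109611433-109611639 on the minus strand, inside an intron of a longer Wipi1 transcript.
Ivd: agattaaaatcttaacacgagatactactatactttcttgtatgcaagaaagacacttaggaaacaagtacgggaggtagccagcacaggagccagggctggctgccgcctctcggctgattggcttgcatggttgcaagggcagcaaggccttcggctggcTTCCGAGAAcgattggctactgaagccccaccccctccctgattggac
Wipi1: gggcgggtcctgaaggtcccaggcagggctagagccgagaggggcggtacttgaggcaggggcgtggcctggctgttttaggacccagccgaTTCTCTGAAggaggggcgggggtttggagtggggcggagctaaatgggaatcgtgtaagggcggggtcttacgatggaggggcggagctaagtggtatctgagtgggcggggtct

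Tph1 (ENSMUSG00000040046.14, chr7:46644641-46672537, minus strand, GRCm38) was rare. Mean levels in the beta class were 104 and 154 CPM in postpartum 1 and 2, 15.3 and 902 CPM in pregnant 1 and 2, and 9.75 CPM in the non-pregnant library. The value of 902 CPM came from 6 UMIs in 1 cell of pregnant 2, a cell of 75 UMIs in all. The other libraries had 4 UMIs in 3 cells and 37 UMIs in 31 cells (postpartum 1 and 2), 6 UMIs in 5 cells (pregnant 1) and 11 UMIs in 11 cells (non-pregnant). Both postpartum libraries stood above pregnant 1 and the non-pregnant library, and pregnant 2 stood above all of them through that one cell. With UMIs pooled over cells, the level in postpartum 2 was 16.7 times that of pregnant 1 (95% interval 6.99 to 48.5, exact binomial for the ratio of counts) and 18.9 times that of the non-pregnant library (9.42 to 41.0). For postpartum 1 the ratio to pregnant 1 was 8.91 (1.85 to 37.6). Pregnant 1 and the non-pregnant library differed by a ratio of 1.13 (0.343 to 3.33), so that no difference between them was detectable at this depth.

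Differences between states were tested by limma on log2(CPM + 100) over every gene that averaged 100 CPM or more, and Tph1 passed this filter only through pregnant 2. Across the beta class the comparison of postpartum with pregnant libraries called 3 of 2203 genes (0.136%) at a Benjamini-Hochberg adjusted p under 0.05, that of postpartum with non-pregnant 7 (0.318%) and that of pregnant with non-pregnant 3 (0.136%). The median over all tested genes was itself 0.55, -0.01 and -0.58 on the log2 scale in these 3 comparisons. Without pregnant 2 it was -0.03, 0.00 and 0.02. Tph1 stood at -0.58 ± 1.01 for postpartum minus pregnant (SE, limma adjusted p = 0.845), 1.05 ± 1.24 for postpartum minus non-pregnant (limma adjusted p = 1.00) and 1.63 ± 1.24 for pregnant minus non-pregnant (limma adjusted p = 0.891). Without pregnant 2 the gene fell under the filter. With pregnant 1 left out instead, so that pregnant 2 alone stood for pregnancy, the first difference was -2.14 ± 0.48 (limma adjusted p = 3.75e-05) and the third 3.19 ± 0.56 (limma adjusted p = 1.19e-07), in fits that called 1752 (83.7%) and 1617 (77.3%) of 2093 genes. The direction of Tph1 between postpartum and pregnant islets rested on which pregnant library was used.

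**Figure D1:**
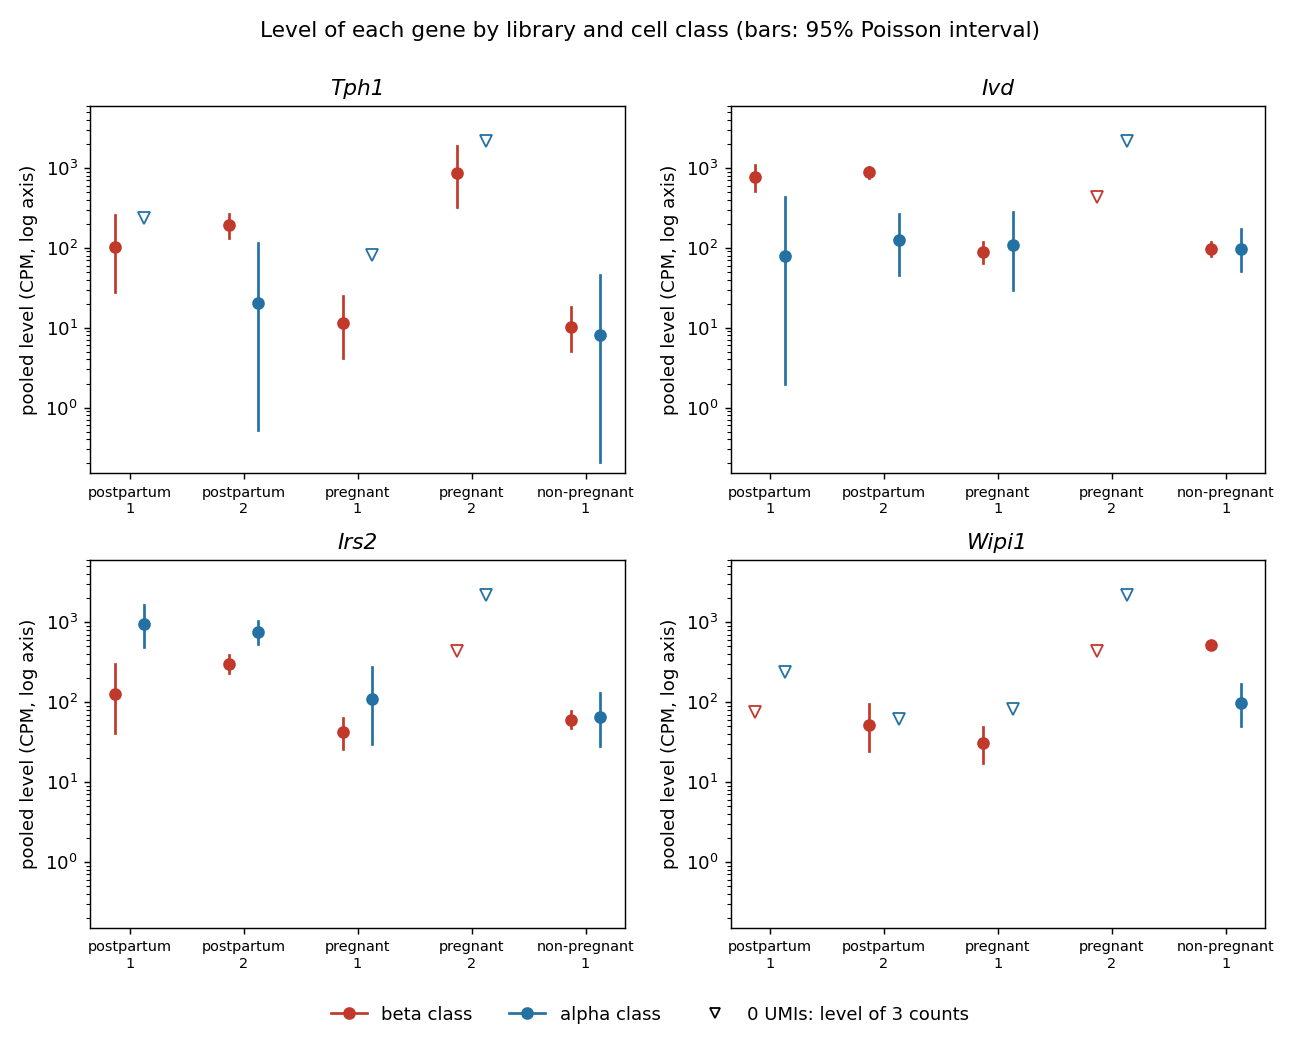
Level of each gene in the beta class (red) and the alpha class (blue) of each library, as CPM of non-hormone UMIs pooled over cells on a log axis, with 95% Poisson intervals, and open triangles where no UMI was found, placed at the level of 3 counts. Ivd is high in the beta class of both postpartum libraries, Irs2 in the alpha class of both, and Wipi1 in the non-pregnant library.

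Ivd (ENSMUSG00000027332.11, chr2:118861954-118882909, plus strand) was higher in the postpartum libraries than in the others in the beta class. It stood at 717 and 956 CPM in postpartum 1 and 2, at 89.6 and 0 CPM in pregnant 1 and 2, and at 89.9 CPM in the non-pregnant library. These are 30 and 171 UMIs postpartum, 46 and 0 in the pregnant libraries and 105 in the non-pregnant one. Both postpartum libraries lay above the others, while the limit of 437 CPM in pregnant 2 is wide. The share of all genes with this order of libraries was not counted. By library the means were 837 ± 169 CPM postpartum (SD, n = 2), 44.8 ± 63.4 CPM pregnant (SD, n = 2) and 89.9 CPM non-pregnant (n = 1). The pooled level in postpartum 1 was 8.72 times that of pregnant 1 (5.31 to 14.1), and in postpartum 2 it was 10.1 times (7.24 to 14.3). Pregnant 1 over non-pregnant came to 0.906 (0.626 to 1.29).

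In the limma fit Ivd was 2.75 ± 1.17 (log2, SE) for postpartum minus pregnant, with an adjusted p of 0.842, and 2.29 ± 1.43 for postpartum minus non-pregnant, with an adjusted p of 1.00. It passed the filter on low values only through the postpartum libraries. Neither difference passed the test with all 5 libraries, and an exact permutation test of 2 against 2 libraries cannot go below a p of 0.333. Without pregnant 2 the differences were 2.29 ± 0.47 and 2.29 ± 0.47. Without pregnant 1 the first was 3.22 ± 0.48 (limma adjusted p = 1.94e-10) among 1752 called genes of 2093 (83.7%), and the second 2.29 ± 0.48 (limma adjusted p = 5.86e-05) among 161 (7.69%). Ivd was thus above pregnant and non-pregnant cells in each of these fits, but with all 5 libraries it did not pass the threshold. The value of 3.22 rests on the count of 0 in pregnant 2, where up to 437 CPM is allowed, and on the added constant. Its size was therefore not measured, and its adjusted p cannot be read as a test between states. With a pregnant library left out, the pregnant and non-pregnant states had 1 library each. The error then came from the postpartum pair, smoothed over genes. Without pregnant 2 the SE of postpartum minus non-pregnant fell from 1.43 to 0.47, while the difference stayed at 2.29. The pregnant minus non-pregnant difference was -0.46 ± 1.43 (limma adjusted p = 0.891), and -0.0022 ± 0.54 without pregnant 2.

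Irs2 (ENSMUSG00000038894.7, chr8:10984681-11008458, minus strand) overlaps 9530052E02Rik on the opposite strand, and since the strand of counting is not given, reads of the pair may not be told apart. It was found in both the alpha class, the glucagon cells, and the beta class. In the alpha class it stood at 940 and 766 CPM in postpartum 1 and 2 (12 and 37 UMIs), 93.2 and 0 CPM in pregnant 1 and 2 (4 and 0 UMIs) and 60.4 CPM in the non-pregnant library (8 UMIs). Both postpartum libraries lay above the rest, although a count of 0 in pregnant 2 allows 2164 CPM. How common this order was over all genes was not counted. The pooled ratio to pregnant 1 was 8.66 for postpartum 1 (2.62 to 36.8) and 6.98 for postpartum 2 (2.51 to 27.0). Pregnant 1 over non-pregnant was 1.67 (0.369 to 6.25).

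The limma fit of the alpha class called 1 of 1869 genes (0.0535%) for postpartum minus pregnant and for postpartum minus non-pregnant, in both cases Ttr, transthyretin. Irs2 was 2.77 ± 1.42 for the first (limma adjusted p = 0.914) and 2.56 ± 1.74 for the second (limma adjusted p = 1.00). Without pregnant 2 the values were 2.30 ± 0.54 (limma adjusted p = 0.361) and 2.56 ± 0.54 (limma adjusted p = 0.155), in fits that called 1 (0.0432%) and 4 (0.173%) of 2316 genes. Without pregnant 1 the first was 3.25 ± 0.46, which rests on the count of 0 in pregnant 2, where up to 2164 CPM is allowed. Irs2 passed the filter on low values only through the postpartum libraries. Tph1, Ivd and Wipi1 fell under the filter of the fit with all 5 libraries. Ivd entered the fit without pregnant 2, at 0.087 ± 0.69 for postpartum minus pregnant (limma adjusted p = 0.971) and -0.0038 ± 0.69 for postpartum minus non-pregnant (limma adjusted p = 0.998).

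In the beta class Irs2 stood at 113 and 309 CPM in postpartum 1 and 2 (5 and 59 UMIs), 51.0 and 0 CPM in pregnant 1 and 2 (22 and 0 UMIs) and 63.2 CPM in the non-pregnant library (66 UMIs). Postpartum 2 was above the other libraries. The pooled ratio of postpartum 2 to pregnant 1 was 7.27 (4.39 to 12.5), whereas that of postpartum 1 was 3.04 with an interval that includes 1 (0.899 to 8.22). The limma difference for postpartum minus pregnant was 1.26 ± 0.85 (adjusted p = 0.842) and for postpartum minus non-pregnant 0.86 ± 1.04 (adjusted p = 1.00). Without pregnant 2 they were 0.97 ± 0.48 and 0.86 ± 0.48, and without pregnant 1 the first was 1.56 ± 0.45. This last value rests on the count of 0 in pregnant 2. Up to 437 CPM is allowed there, more than the level of either postpartum library. Like Ivd, Irs2 passed the filter on low values only through the postpartum libraries.

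Wipi1 (ENSMUSG00000041895.15, chr11:109573331-109611967, minus strand) had the opposite pattern, with its highest level in the non-pregnant library. In the beta class it stood at 0 and 37.6 CPM in postpartum 1 and 2 (0 and 10 UMIs), 20.3 and 0 CPM in pregnant 1 and 2 (16 and 0 UMIs) and 507 CPM in the non-pregnant library (563 UMIs in 265 of 680 cells). The non-pregnant library lay above all the others, and how common this was over all genes was not counted. The pooled ratio to the non-pregnant level was 0.0996 in postpartum 2 (0.0475 to 0.185), 0.0588 in pregnant 1 (0.0334 to 0.0963) and at most 0.182 in postpartum 1. The 0 UMIs of pregnant 2 allow a ratio of up to 1.04. Among the pregnant and postpartum libraries the values did not separate, with a pooled ratio of postpartum 2 to pregnant 1 of 1.69 (0.687 to 3.97).

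The limma difference of Wipi1 in the beta class was -2.37 ± 0.91 for postpartum minus non-pregnant (adjusted p = 1.00), -2.47 ± 0.91 for pregnant minus non-pregnant (adjusted p = 0.891) and 0.10 ± 0.75 for postpartum minus pregnant (adjusted p = 0.965). Without pregnant 2 the first was -2.37 ± 0.57 and the second -2.33 ± 0.66. Without pregnant 1 they were -2.37 ± 0.43 and -2.60 ± 0.49. With a pregnant library left out, neither state of the second comparison had a replicate. Its error then came from the postpartum pair, smoothed over genes. The gene passed the filter only through the non-pregnant library. That library is the only one of its state, it was deposited on another scale with 40930 features against 6695, and its beta-class cells had a median of 2652.5 UMIs against 89 to 558.5. The state and the way this library was made or counted cannot be told apart.

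**Figure D2:**
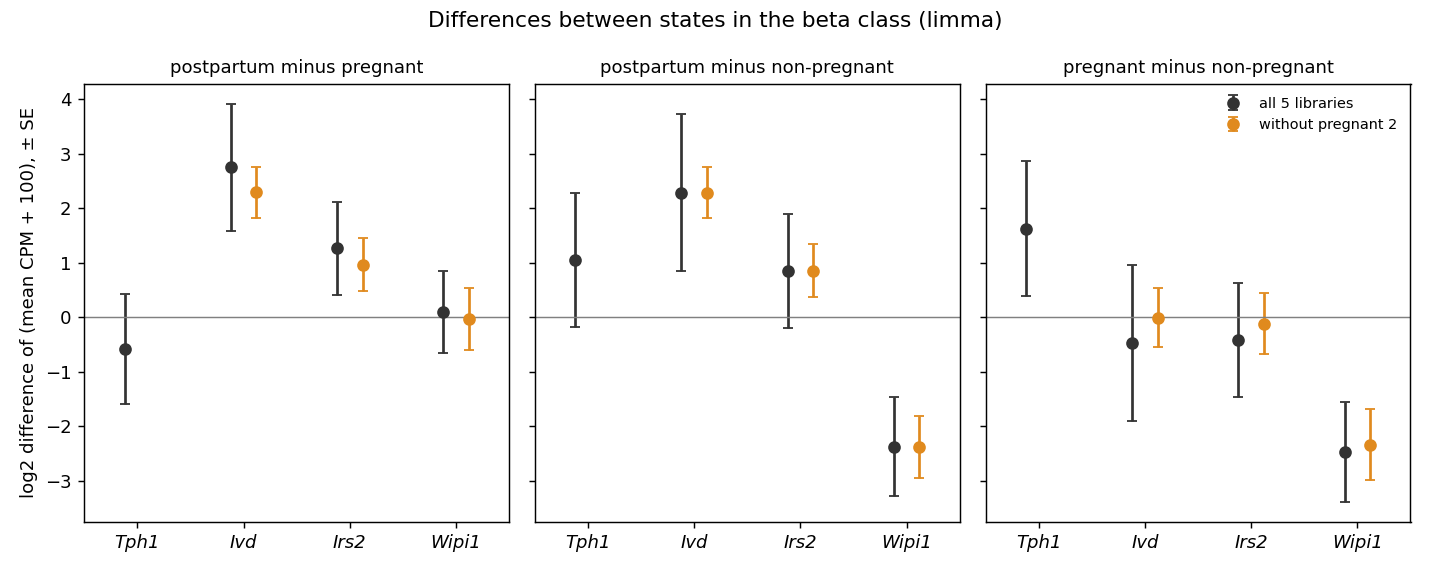
Log2 differences between states in the beta class from limma, as points with standard errors, with all 5 libraries (dark) and without pregnant 2 (orange); Tph1 has no orange point because it fell under the filter. Ivd lies at 2.75 and 2.29 for postpartum minus pregnant, and Wipi1 at -2.37 and -2.47 in the comparisons of postpartum and pregnant with non-pregnant.

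Shares of cells with a transcript depend on depth, so each beta-class cell was also thinned to 200 UMIs of the genes measured in every library. This kept 233 and 891 cells of postpartum 1 and 2, 1737 of pregnant 1, 1 of pregnant 2 and 680 of the non-pregnant library. Ivd was then found in 6.44% and 6.96% of postpartum 1 and 2 cells, 1.04% of pregnant 1 cells and 0.441% of non-pregnant cells. Before thinning its shares were 7.21%, 15.4%, 2.48% and 12.2% in the same order. The high non-pregnant share was thus not kept when the UMIs of these shared genes were equal. Hormones made up 52.6%, 56.2%, 37.7% and 32.7% of all UMIs of these libraries, those of genes not shared included. The non-hormone UMIs per thinned cell therefore still differed. In alpha-class cells thinned alike Ivd was found in 0 of 73 and 0.562% of postpartum 1 and 2 cells. It was found in 4 of 138 pregnant 1 cells (2.90%, exact 95% interval 0.795 to 7.26) and 2 of 94 non-pregnant cells (2.13%, 0.259 to 7.48). The beta-class shares of pregnant 1 and the non-pregnant library lie within these intervals. Tph1 was found in 1.29% and 1.35% of thinned postpartum cells, 0.115% of pregnant 1 cells and 0.147% of non-pregnant cells, against 0.746%, 3.46%, 0.282% and 1.62% before thinning, and in no thinned alpha-class cell (0 of 73 and 0 of 178 in postpartum 1 and 2, 0 of 138 in pregnant 1 and 0 of 94 in the non-pregnant library). The thinned shares of pregnant 1 and of the non-pregnant library stem from single cells or a pair of cells. Irs2 was found in 0 of 233 thinned postpartum 1 cells, which allows up to 1.29%, in 2.13% of postpartum 2 cells, 0.518% of pregnant 1 cells and 0.882% of non-pregnant cells. Wipi1 was found in 5.74% of thinned non-pregnant cells, against 0 of 233 cells in postpartum 1, 0.112% in postpartum 2 and 0.173% in pregnant 1. In the alpha class of the non-pregnant library Wipi1 was found in 10.6% of cells before thinning and in 0 of 94 after it, which allows up to 3.19%. The unthinned beta-class share there was 39.0%.

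**Figure D3:**
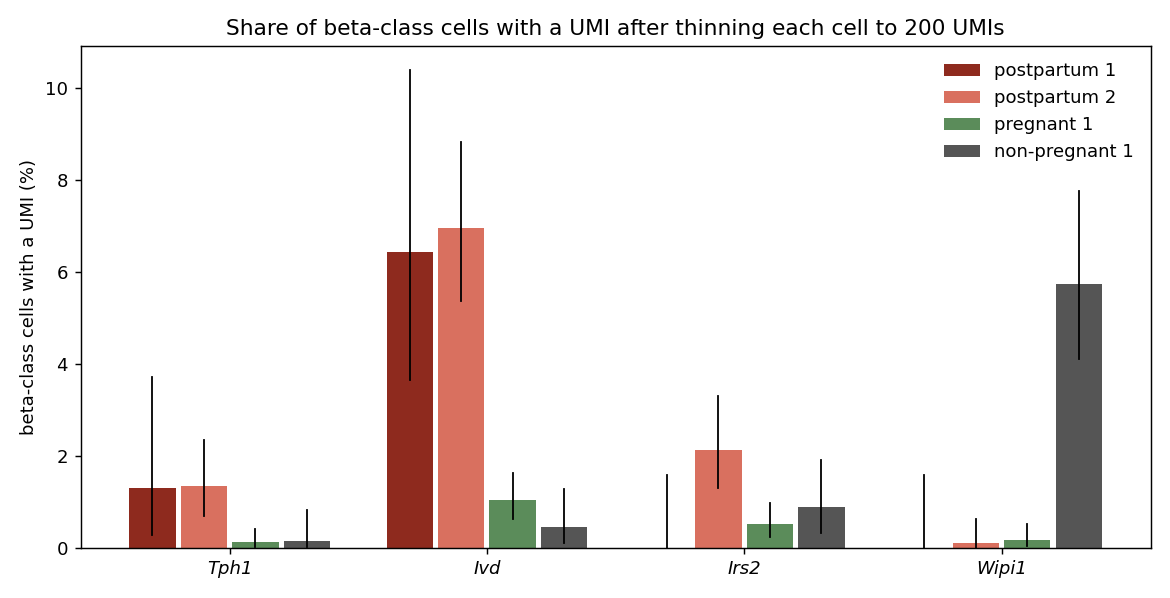
Share of beta-class cells with at least 1 UMI of each gene after every cell was thinned to 200 UMIs, with exact 95% binomial intervals as black lines, for the 4 libraries with enough cells. The postpartum bars of Ivd reach 6.44% and 6.96%, and the non-pregnant bar of Wipi1 reaches 5.74%.

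The members also differed in how they were spread over cell classes. For Ivd the pooled ratio of the beta to the alpha class had an interval above 1 in both postpartum libraries and one that included 1 in pregnant 1 and the non-pregnant library. The ratios were 9.68 (1.61 to 395) and 7.14 (3.21 to 19.7) in postpartum 1 and 2, 0.801 (0.293 to 3.06) in pregnant 1 and 0.987 (0.542 to 1.97) in the non-pregnant library. In the alpha class it stood at 67.8 and 157 CPM in postpartum 1 and 2, 95.6 and 0 CPM in pregnant 1 and 2 and 108 CPM in the non-pregnant library, so the alpha-class values overlapped between states. Irs2 ran the other way, with beta over alpha ratios of 0.134 (0.0371 to 0.410) in postpartum 1, 0.399 (0.260 to 0.620) in postpartum 2, 0.383 (0.13 to 1.53) in pregnant 1 and 0.930 (0.446 to 2.24) in the non-pregnant library. Tph1 had 64 UMIs in the beta class over the 5 libraries, 2 in the alpha class and 0 in the delta and gamma classes, led by somatostatin and pancreatic polypeptide. Most cells and UMIs were of the beta class, and its beta over alpha ratio was 9.27 (1.56 to 376) in postpartum 2 and 1.24 (0.18 to 53.4) in the non-pregnant library, where the mean levels were 9.75 CPM in the beta and 11.98 CPM in the alpha class. The other libraries had 0 Tph1 UMIs in the alpha class. Wipi1 in the non-pregnant library was 5.29 times as high in the beta as in the alpha class (3.0 to 10.3), and its delta and gamma classes stood at 441 and 307 CPM.

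Over all states, limma with the library as a block called 5 of 2107 genes (0.237%) higher in the beta than in the alpha class, among them Prlr and the IGF1 receptor Igf1r. Of the members, Tph1 had a difference of 1.13 ± 0.56 (limma adjusted p = 0.419), Ivd 0.83 ± 0.45 (limma adjusted p = 0.432) and Irs2 -0.74 ± 0.37 (limma adjusted p = 0.419), and Wipi1 fell under the filter. Here too Ivd and Irs2 passed the filter only through the postpartum libraries, and Tph1 only through pregnant 2. In edgeR on the recovered UMIs Wipi1 was 2.50 higher on the log2 scale (adjusted p = 0.0164), where 326 of 6619 genes were called (4.93%). It was 1.80 in DESeq2 (adjusted p = 0.585) and 0.49 ± 0.25 in limma with no filter (adjusted p = 0.445), so that edgeR alone of these 3 called it. The change of the beta minus alpha difference between states was tested as well, and limma called 0 of 2107 genes (0%) in each of the 3 comparisons, with 68, 20 and 1 genes at an unadjusted p under 0.05. In pregnant 2 Ivd had 0 UMIs in both classes. Up to 437 CPM is allowed there in the beta class and 2164 CPM in the alpha class. With pregnant 1 left out, the pregnant side of Ivd was thus set by the added constant. The adjusted p of that fit cannot be read as a change between states. For postpartum minus pregnant the change of the beta minus alpha difference was 2.18 ± 0.39 for Ivd and -1.51 ± 0.57 for Irs2 (both limma adjusted p = 0.764). For Ivd it became 2.16 ± 0.74 without pregnant 1 (limma adjusted p = 0.0116, with 683 of 2009 genes called, 34%) and 2.21 ± 0.74 without pregnant 2 (limma adjusted p = 0.470).

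Prlr, the receptor of the lactogens, stood at 6470 and 6609 CPM in the beta class of postpartum 1 and 2, 1227 and 1396 CPM in pregnant 1 and 2 (the last from 6 UMIs) and 976 CPM in the non-pregnant library. Within a library, cells with a member's transcript could be set beside those without. In postpartum 2, 99 of the 138 beta-class cells with Ivd also had Prlr (71.7%), against 58.7% of those without Ivd, with a median of 685.5 UMIs in cells with Ivd and 534 in those without. Of the 31 cells with Tph1, 8 also had Ivd (25.8%, against 15.0% of the rest), but their median was 991 UMIs against 553. Of the 138 cells with Ivd 4 had Irs2 (2.90%), against 6.07% of those without Ivd. Cells with a member were the deeper ones in each of these pairs, and the part of depth in these shares was not tested.

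By their profile over 18 units of library and class with at least 10 cells, Tph1 was most like Amy2a5 (Pearson r = 0.99), Pde5a (0.95) and Laptm5 (0.93). The highest unit of the Tph1 profile, the beta class of pregnant 2 at 902 CPM, came from 6 UMIs in 1 cell. The other units were at most 154 CPM, so these correlations rest largely on that unit. Amy2a5 encodes pancreatic amylase, an enzyme of acinar cells. In pregnant 2, the library with the highest Tph1 level, the 9 acinar markers summed to 6944 CPM in the beta class, against 1465 and 1615 CPM in postpartum 1 and 2, 41.3 CPM in pregnant 1 and 877 CPM in the non-pregnant library. Ivd was most like Ctdspl (0.84), Gpd2 (0.84), the mitochondrial glycerol-3-phosphate dehydrogenase, and Eif3e (0.82), a translation initiation factor subunit. Irs2 was most like Dusp10 (0.92), a MAP kinase phosphatase, the orphan nuclear receptor Nr4a2 (0.89) and Jarid2 (0.87), a partner of Polycomb complex 2. Among the genes most like Wipi1 were Rps6 (0.87) and Rpl3 (0.85), which encode ribosomal proteins. Units of a library share its depth, and no test was made of these correlations.

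Genes that moved with the postpartum libraries in both classes include the immediate early genes Fos, Jun, Fosb and Egr1, transcription factors that cells switch on within minutes of a stimulus, named here after their values were seen. Fos stood at 1977 and 1853 CPM in the beta class of postpartum 1 and 2, 157 and 0 CPM in pregnant 1 and 2 and 181 CPM in the non-pregnant library. In the alpha class the values were 2006 and 2046 CPM, 187 and 0 CPM, and 490 CPM in the same order. The 6 alpha markers other than the hormone summed to 67485 and 67061 CPM in the alpha class of postpartum 1 and 2, 22280 and 20621 CPM in pregnant 1 and 2 and 22158 CPM in the non-pregnant library. Ttr alone stood at 64668 and 64676 CPM, 19927 and 16327 CPM, and 19872 CPM in the same order, and the other 5 summed to 2817 and 2386 CPM, 2354 and 4294 CPM, and 2286 CPM, which did not separate the states. The acinar markers in the beta class, given above, were also higher in the postpartum libraries than in pregnant 1. The part of these differences in the values of Ivd, Irs2 and Tph1 was not tested.

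The pathways around each member were described from lists of their known genes. Of the lactogen signalling and target list 21 of 29 genes were measured and 12 tested, and 0 were called between states with all 5 libraries, where 0.136% to 0.318% of all genes were. The median of those tested was 1.46 for postpartum minus pregnant, against 0.55 for all genes. The cyclin gene Ccnd2, a cell cycle regulator, stood at 3929 and 3284 CPM in postpartum 1 and 2, 1670 and 848 CPM in pregnant 1 and 2 and 2292 CPM in the non-pregnant library. Enpp2, which makes lysophosphatidic acid, stood at 2355 and 2617 CPM, 587 and 1333 CPM, and 361 CPM in the same order. Without pregnant 2, pregnant 1 alone stood for pregnancy. The postpartum minus pregnant differences were then 2.32 ± 0.29 for Prlr, 2.30 ± 0.47 for the monooxygenase Fmo1 and 1.91 ± 0.41 for Enpp2. Ccnd2, Cish and Socs3 were also higher postpartum. In this fit Fmo1, Cish and Socs3 passed the filter on low values only through the postpartum libraries. The list was chosen with earlier results of these data known, so these differences are no independent support. Cish and Socs3 encode feedback inhibitors of cytokine receptors. Between classes Prlr was 3.70 ± 0.42 higher in the beta than in the alpha class (limma adjusted p = 0.0374).

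Of the serotonin list 8 of 17 genes were measured and 7 tested, with 0 called between states. The median for postpartum minus pregnant was 1.06, against 0.55 for all genes. Without pregnant 2 it was 0.11 over 6 tested genes, against -0.03 for all genes. Ddc, the decarboxylase that follows Tph1 in the pathway, stood at 1222 and 1514 CPM in the beta class of postpartum 1 and 2, 1030 and 87.9 CPM in pregnant 1 and 2 and 698 CPM in the non-pregnant library. Gch1 and Pcbd1 act in making and recycling tetrahydrobiopterin, the cofactor of Tph1. Gch1 stood at 493 and 429 CPM, 945 and 74.5 CPM, and 611 CPM in the same order, so that pregnant 1 was the highest. Pcbd1 stood at 342 and 887 CPM, 371 and 0 CPM, and 214 CPM. Of the branched-chain amino acid list 15 of 23 genes were measured and 4 tested, with 0 called between states. The median for postpartum minus pregnant was 0.92 with all libraries, against 0.55 for all genes. It was 0.23 over 5 tested genes without pregnant 2, against -0.03 for all genes. Etfb, a subunit of the flavoprotein that takes electrons from Ivd, stood at 96.1 and 188 CPM postpartum, 157 and 0 CPM in the pregnant libraries and 119 CPM in the non-pregnant one. Pccb, a subunit of propionyl-CoA carboxylase, stood at 158 and 157 CPM, 124 and 0 CPM, and 92.6 CPM. Neither gene showed the gap between postpartum 1 and pregnant 1 that Ivd had, and without pregnant 2 Ivd was the single called gene of 5 tested, for postpartum minus pregnant (2.7% of all genes called) and for postpartum minus non-pregnant (6.1%).

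Of the insulin and IGF list 24 of 28 genes were measured and 13 tested, with 0 called between states and a median of 0.14 for postpartum minus pregnant. Akt1, a kinase downstream of Irs2, stood at 368 and 799 CPM in the beta class of postpartum 1 and 2, 533 and 3090 CPM in pregnant 1 and 2 and 350 CPM in the non-pregnant library. Akt2 stood at 207 and 95.8 CPM, 71.8 and 1121 CPM, and 119 CPM in the same order. Igf1r, a receptor upstream of Irs2, stood at 741 and 506 CPM, 865 and 338 CPM, and 1384 CPM, and was 2.17 ± 0.25 higher in the beta than in the alpha class (limma adjusted p = 0.0374). Of the autophagosome list 26 of 31 genes were measured and 8 tested, with 0 called between states and a median of -0.27 for postpartum minus non-pregnant, against -0.01 for all genes. The cargo receptor Sqstm1 stood at 1172 and 1080 CPM, 1616 and 2703 CPM, and 1353 CPM. Gabarapl1, an Atg8 protein of the autophagosome membrane, stood at 388 and 774 CPM, 681 and 2543 CPM, and 320 CPM. Lamp1, a lysosomal membrane protein, stood at 1544 and 684 CPM, 981 and 324 CPM, and 994 CPM. The non-pregnant library was not the highest for any of these 3. It was the highest for other genes of the list, named after their values were seen. Lamp2, a lysosomal membrane protein, stood at 216 and 102 CPM, 391 and 0 CPM, and 580 CPM, and Becn1, a subunit of the lipid kinase complex that starts autophagosomes, at 0 and 14.7 CPM, 50.3 and 0 CPM, and 161 CPM. Without pregnant 2, 2 of 12 tested genes of the list were lower postpartum than in the non-pregnant library, in the fit that called 6.1% of all genes. They were Wipi1, which passed the filter only through the non-pregnant library, and Lamp2, at -1.43 ± 0.47 (limma adjusted p = 0.0370).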

How the data were processed

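Transcripts were counted by inDrop in 5 libraries of dissociated islets. Partek 8.0, Bowtie 1.1.1 and the builds GRCm38 and mm10 are named in the submitters' processing notes, and neither they nor the labels name a counter, an annotation, a strand or a cell filter. For the non-pregnant library the authors deposited a linear signal on 40930 features, scaled to 1 total per cell. For the other 4 libraries the deposited values are log2 of normalized counts plus 1 on 6695 features, and these were back-transformed. UMI counts were recovered as whole multiples of each cell's smallest step, and 100% of values lay within 0.1 of a whole number; in pregnant 2, the smallest value of 9 cells was above 1 UMI.

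Features were matched by symbol (6543) or synonym (85), and 52 were unmatched. Rn45s, Gm42418, symbols turned into dates and duplicate rows were left out. The 7 measured hormones were left out of the denominator and of the tests. All deposited cells were kept, no doublet caller was run, and barcodes with mixed hormones were left out in the alternative with a leading hormone of at least 80%. The files number their cells, so shared barcodes could not be counted.

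The main test was limma 3.58.1 (R 4.3.3, trended prior) on log2(mean CPM + 100), with genes of at least 100 CPM on average, all 5 libraries and 3 groups. The single non-pregnant library was given the spread of the other groups. With 2 residual degrees of freedom (1 without pregnant 2) the prior had infinite weight in the beta class, with and without pregnant 2, so the error came from the trend over genes. Alternatives used edgeR 4.0.16 and DESeq2 1.42.0 on recovered UMIs summed per class and library, and the added constant, filter, cell weight, denominator, class rule, cell depth and libraries were varied. The alpha-class fit and the test of the beta minus alpha difference between states were added after seeing the data. The limma step was tested on simulated data with known changes. That simulation gave every library the same spread beyond counting error, so it cannot show how the fits behave where 1 library stands apart.

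The members and the gene lists were chosen with earlier results of these data known. Named genes are the 4 members, up to 3 called genes of each list or else its 3 highest by mean beta-class CPM, and the 3 genes most like each member, of which 1 is not reported here; others are named after seeing their values. Promoters come from RefSeq (GRCm38.p6) and gene positions from GENCODE.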

Additional observations from a re-analysis of the deposited data

How the results depend on the processing

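The counts of called genes moved with the libraries left out and, for beta minus alpha, with the tool. For postpartum minus pregnant in the beta class limma called 3 genes. The count was 5 with no filter on low genes, 0 in edgeR (90 at an unadjusted p under 0.05), 0 in DESeq2 (110 unadjusted), 0 with hormones in the denominator (28 unadjusted) and 1 with cells of at least 100 UMIs, and it ran between 1 and 1752 as each library was left out. For postpartum minus non-pregnant (7 called) it was 3 with 10 CPM added, 1 in edgeR, 4 in DESeq2, 1 with hormones in the denominator, 1 with cells of at least 100 UMIs, and between 1 and 161 with a library left out. For pregnant minus non-pregnant (3 called) it was 0 in edgeR (88 unadjusted), 1 with hormones in the denominator, 1 with cells of at least 100 UMIs, and between 1 and 1617 with a library left out. Of the counts with a library left out, the highest of each comparison came without pregnant 1, and without pregnant 2 the counts were 66, 149 and 52 in this order of comparisons. In the alpha class leaving out a library gave 0 to 806, 0 to 4 and 0 to 453, and pooled UMIs gave 4 and 2 in the comparisons with the non-pregnant library. For beta minus alpha (5 called) the count was 0 with 10 CPM added (225 unadjusted), 9 with no filter, 326 in edgeR, 143 in DESeq2, 12 with pooled UMIs, 11 with hormones in the denominator, 8 with a leading hormone of at least 80%, 8 with cells of at least 100 UMIs, 19 with no library block and 0 to 293 with a library left out. The change of this difference between states gave 0 to 683, 0 to 4 and 0 to 610. The cause was not tested.

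Of the alternatives for single members, 223 kept direction and side of the threshold, 15 passed the threshold where the main value did not, all of them with a pregnant library left out, and 5 changed sign. Tph1 for postpartum minus pregnant became 0.53 in edgeR. Wipi1 for the same comparison ran from -0.13 (without postpartum 2) to 0.33 (without postpartum 1) and was -0.037 without pregnant 2. Irs2 in the alpha class for pregnant minus non-pregnant ran from -0.68 (without pregnant 1) to 0.27 (without pregnant 2). The beta minus alpha change of Ivd for pregnant minus non-pregnant became -0.069 with pooled UMIs. The cause was not tested, and none of these 5 had passed the threshold. Thinning to 200 UMIs moved 12 shares of beta-class cells outside the exact 95% binomial interval of the unthinned share, to 1.35% (postpartum 2) and 0.147% (non-pregnant) for Tph1, to 6.96% (postpartum 2), 1.04% (pregnant 1) and 0.441% (non-pregnant) for Ivd, to 0% (postpartum 1), 2.13% (postpartum 2), 0.518% (pregnant 1) and 0.882% (non-pregnant) for Irs2, and to 0.112% (postpartum 2), 0.173% (pregnant 1) and 5.74% (non-pregnant) for Wipi1.

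Libraries of the same number did not deviate together from their group means (r = 0.04 over 2203 genes, 2 pairs). The pregnant deviations depend on pregnant 2, with 6867 non-hormone UMIs in the beta class against 526241 in pregnant 1. This value therefore cannot show whether the numbers pair the libraries. With the replicate block limma called 3 of 2035 genes for postpartum minus pregnant, as many as without it. Depth limits pregnant 2 most, where 3 counts in the beta class stand for 437 CPM.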
